A study of Homo sapiens with 24 samples.

Results

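Myosin II, the motor that pulls on actin filaments, was described through 9 genes. The regulatory light chains were MYL9, MYL12A, MYL12B and MYL7, and the essential light chain was MYL6. The others were the light chain kinase MYLK and the heavy chains MYH9, MYH10 and MYH11. All 9 were chosen by symbol, with no threshold on a measured value but with earlier results of these data known. Counts of calls set beside the shares of all genes are therefore a description. The set makes up 9 of the 37247 gene identifiers in the deposited tables. Of these 9, 8 had enough counts to be tested among 14986 genes, and MYH11 did not. RNA was measured in 24 libraries of MDA-MB-231, an established line of human breast cancer with a mesenchymal look, in 8 groups of 3.

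The 4 lines were WT (overexpressing wild-type MRTF-A), dSAP and dSRF (overexpressing 1 mutant each, whose abbreviations the labels do not spell out), and Control. MRTF-A, the product of MRTFA, works with the transcription factor SRF and is held back by unpolymerised actin. All 4 lines, Control included, are labelled as given doxycycline at 1 ug/ml for 72 h, the drug that induces the overexpression. Each line was grown on matrigel, a basement membrane gel, with matrigel in the medium (3D), or in culture plates (2D). The labels do not say whether the 3 libraries of a group came from separate cultures, so the p-values measure only the spread between these libraries, which may be technical. They also do not say whether a line is 1 clone or a pool, or what the Control line carries.

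A class II myosin holds a pair of heavy chains, each binding 1 essential and 1 regulatory light chain. Phosphorylation of the regulatory light chain by kinases such as MYLK switches the motor on and lets it assemble into filaments, and myosin phosphatase reverses it. Several genes of contractility, MYL9 among them, are known targets of MRTF and SRF, which bind through a sequence called the CArG box.

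The groups were taken from the titles of the libraries, whereas another field, the genotype, names a different line than the title in 16 of 24 libraries. The induced gene followed the titles in that it was lowest in Control and highest in dSAP. Its levels in WT and dSRF lay too close to tell those lines apart, so their titles could not be checked by it. MRTFA averaged 4143 TPM (a level per length, scaled to a fixed library total) in 3D WT, 10404 in 3D dSAP, 4304.5 in 3D dSRF and 37.0 in 3D Control. In 2D it averaged 4302 TPM in WT, 8989.6 in dSAP, 3817 in dSRF and 41.1 in Control. The 3D dSRF libraries were uneven, at 759, 5945.5 and 6209 TPM, and across genes the first of them correlated more closely with the 2D dSRF mean (r = 0.9714) than with the mean of the other 3D dSRF libraries (r = 0.9521). Values without that library are given beside the results in which they differ by a call. Library totals ran from 13968829 to 23023415 counts. Of the markers of this line, VIM lay between 1330 and 2370 TPM and CD44 between 511 and 1470 TPM, and of those listed as low CDH1 did not pass 1.98 TPM, ESR1 0.23 TPM and PGR 0.0186 TPM. Against their lists, SPARC, listed as high, did not pass 4.73 TPM, and EPCAM, listed as low, lay between 25.0 and 264 TPM. The summed level of 12 markers of other cell types, mostly CD68, SMTN and COL1A1, was 158 to 164 TPM in 3D WT, 173 to 195 in 3D dSAP, 192 to 342 in 3D dSRF and 108 to 140 in 3D Control. In 2D that sum was 138 to 147 TPM in WT, 154 to 166 in dSAP, 255 to 284 in dSRF and 119 to 130 in Control, and its part in the myosin results was not tested.

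Sequences are shown first for the 2 genes of the set with a CArG box in the 250 bases before an annotated start. RefSeq (GRCh38.p14) holds promoters for 7 of the 9 genes, with 11 starts in all, and none is given for MYL9 and MYH11. The CArG box, searched on both strands, was present in 2 of the 11 windows, against 407 of all 35116 such windows (1.16%). The match is in capitals, and each sequence reads 5′ to 3′ on the minus strand, which is the strand of both genes.
MYL7, chr7:44141333-44141582: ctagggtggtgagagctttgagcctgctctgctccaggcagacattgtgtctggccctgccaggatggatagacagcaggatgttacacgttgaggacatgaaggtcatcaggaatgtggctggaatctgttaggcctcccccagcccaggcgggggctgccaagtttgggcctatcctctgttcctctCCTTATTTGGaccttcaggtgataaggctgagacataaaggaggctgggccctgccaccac
MYLK, chr3:123620549-123620798: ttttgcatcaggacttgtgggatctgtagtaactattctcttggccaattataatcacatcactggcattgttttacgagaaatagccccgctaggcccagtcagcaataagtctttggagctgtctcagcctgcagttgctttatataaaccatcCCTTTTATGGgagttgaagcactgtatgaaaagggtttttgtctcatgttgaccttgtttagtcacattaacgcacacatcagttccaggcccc
In MYL7 the box lies at bases -61 to -52 before the start. In MYLK it lies at -94 to -85 before a start inside the gene, 10499 bases from the gene's end, where 2 of the 21 annotated MYLK transcripts begin, of 678 and 1447 nt. No other MYLK start was listed, so the bases before its longer transcripts, of up to 10027 nt, were not searched. A match is a description of letters, not a binding site.

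Against Control, most of the myosin genes rose with WT MRTF-A in both cultures, fewer rose with dSAP, and with dSRF some rose and some fell. In 3D WT, 7 of the 8 tested genes were called higher and 0 lower, where 18.0% of all genes were called higher and 17.0% lower. In 3D dSAP 5 were higher and 0 lower (all genes 16.5% and 13.1%), and in 3D dSRF 5 higher and 3 lower (35.1% and 31.3%). One of these 5, MYL7, rests on the first 3D dSRF library and is at 0 counts without it (adjusted p = 1). In 2D WT 6 were higher and 0 lower (20.1% and 19.2%), in 2D dSAP 4 and 0 (17.5% and 15.4%), and in 2D dSRF 1 and 3 (34.5% and 31.5%). Called means a Benjamini-Hochberg adjusted p under 0.05 over all 14986 genes in edgeR's quasi-likelihood test. The 3 comparisons within a culture share their Control libraries. In these bulk libraries, more cells expressing a gene and more RNA of it per cell cannot be told apart. The median log2 fold change of the 8 genes was 0.80 in 3D WT, 0.46 in 3D dSAP and 0.29 in 3D dSRF, against all-gene medians of -0.017, 0.0016 and 0.023. In 2D it was 0.59 in WT, 0.23 in dSAP and -0.0016 in dSRF, against -0.024, -0.0083 and 0.018. MYL7, whose fold has no finite value against Control, stands above these medians at its fitted value and at its lower bound alike.

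**Figure D1:**
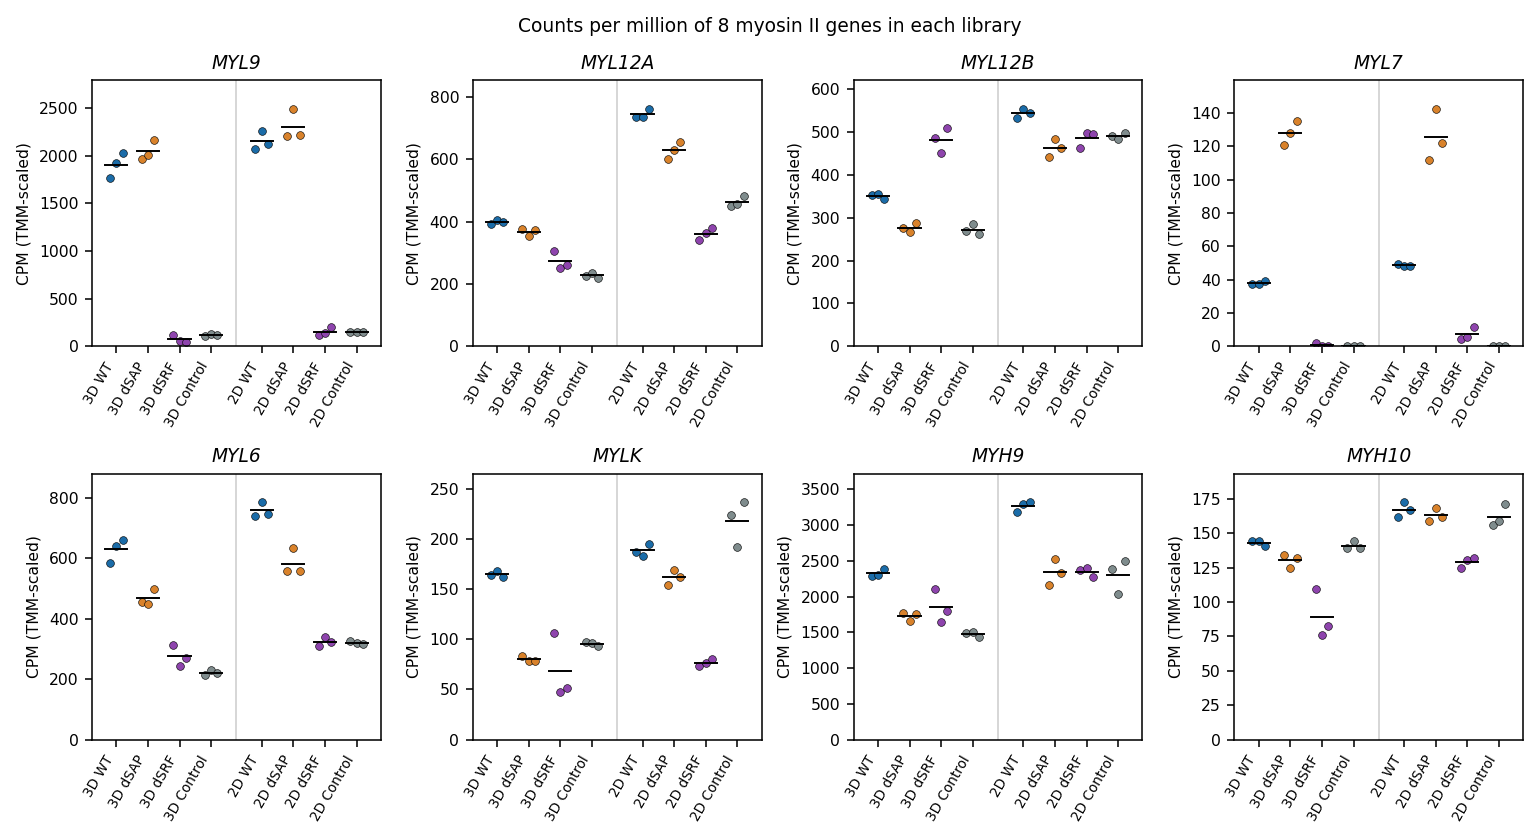
Level of 8 myosin genes in each of the 24 libraries, in CPM (counts scaled to a fixed library total) on a linear axis, with WT, dSAP, dSRF and Control from left to right in 3D and then in 2D; points are libraries. MYL9 libraries of WT and dSAP lie at or above 1760.4 CPM and those of dSRF and Control at or below 203 CPM.

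MYL9, the regulatory light chain of smooth muscle and non-muscle myosin (ENSG00000101335, chromosome 20, 36541484 to 36551447, GRCh38), was high in WT and dSAP and low in dSRF and Control. In 3D it stood at 1760.4, 1918 and 2025 CPM in WT, 1961, 2006 and 2167.5 in dSAP, 116, 51.5 and 45.95 in dSRF, and 111, 128 and 119 in Control. In 2D the values were 2069, 2260 and 2126 CPM in WT, 2208, 2492.5 and 2218 in dSAP, 119, 137 and 203 in dSRF, and 148, 147 and 144 in Control. WT and dSAP libraries overlapped neither Control nor dSRF. The increase in WT over Control was 16.0-fold in 3D and 14.7-fold in 2D, and in dSAP 17.2-fold and 15.8-fold.

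Levels were lower in dSRF than in WT. MYL9 differed from WT by -4.74 ± 0.27 on the log2 scale in 3D (SE of the fit, n = 3 per group; adjusted p = 1.92e-11) and by -3.81 ± 0.26 in 2D (adjusted p = 2.89e-10). Against Control, 2D dSRF differed by 0.067 on the log2 scale, with a 95% interval of -0.43 to 0.56. In 3D it fell by 0.74 on the log2 scale (adjusted p = 0.0103), and the groups overlapped because the first dSRF library, at 116 CPM, lay above the lowest Control library. Without that library MYL9 fell by 1.29 (adjusted p = 3.21e-06), and with only the libraries compared in the fit the call was lost (adjusted p = 0.126), as it was without the second or the third dSRF library (adjusted p = 0.0658 and 0.0676). dSAP and WT did not pass the test for MYL9, at 0.10 in 3D (95% interval -0.38 to 0.59) and 0.10 in 2D (-0.39 to 0.59).

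MYL12A and MYL12B encode the ubiquitous regulatory light chains, lie side by side on chromosome 18 (3247481 to 3256236 and 3261479 to 3278431) and are near-identical in sequence, so how the quantification split reads between them is uncertain. MYL12A in 3D stood at 392, 404 and 399 CPM in WT, 376, 353 and 372.5 in dSAP, 306, 252 and 262 in dSRF, and 225, 236 and 220 in Control. MYL12B in 3D stood at 353, 356 and 344 CPM in WT, 275, 265 and 286 in dSAP, 485, 450.3 and 510.2 in dSRF, and 268, 285 and 262 in Control. WT led the lines for MYL12A, whereas dSRF led them for MYL12B, with no overlap between dSRF and any other 3D line for either gene.

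Relative to Control in 3D, MYL12A rose in WT (log2 0.81 ± 0.060), dSAP (0.69 ± 0.060) and dSRF (0.27 ± 0.060). MYL12B rose in WT (0.37 ± 0.049) and more in dSRF (0.83 ± 0.050), whereas in dSAP it stood at 0.021 and was not called. The dSRF values without the first library were 0.18 for MYL12A and 0.82 for MYL12B. In 2D, MYL12A had 735, 737 and 763 CPM in WT, 601, 632 and 656 in dSAP, 340.3, 365 and 379 in dSRF, and 451, 457 and 483 in Control. It rose in WT (0.68 ± 0.060) and dSAP (0.44 ± 0.060) and fell by 0.36 ± 0.060 in dSRF. MYL12B in 2D had 533, 554 and 545 CPM in WT, 442, 484 and 463 in dSAP, 463, 499 and 495 in dSRF, and 490.3, 483 and 497 in Control. Its only call against Control in 2D was WT, at 0.15 ± 0.049 (adjusted p = 0.0192), which was lost on the TPM scale. That call was also lost without the second 2D Control library (edgeR, adjusted p = 0.0625) or the second 2D WT library (adjusted p = 0.0681).

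Summed into 1 row, MYL12A and MYL12B rose in 3D WT by 0.59 on the log2 scale and in 3D dSRF by 0.60. Between dSRF and WT in 3D the sum differed by 0.011 (adjusted p = 0.859), while MYL12A alone differed by -0.54 ± 0.060 and MYL12B alone by 0.46 ± 0.049. In 3D, therefore, the sum did not pass the test between these lines, and the MYL12A to MYL12B ratio in TPM was 0.676 ± 0.0685 (SD, n = 3) in dSRF and 1.40 ± 0.0383 in WT.

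MYL7, the regulatory light chain of the heart's atria (chromosome 7, 44138864 to 44141332), gave 0 counts in all 6 Control libraries, which allows up to 3 counts per group, or 0.0553 CPM in 3D and 0.055 in 2D. In 3D it had 37.4, 37.6 and 39.2 CPM in WT, 121, 128 and 135 in dSAP, and 1.93, 0 and 0 in dSRF. In 2D it had 49.3, 48.1 and 48.1 CPM in WT, 112, 143 and 122 in dSAP, and 4.04, 5.45 and 11.7 in dSRF. WT and dSAP libraries did not overlap, and dSAP was the higher in both cultures.

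The difference of dSAP from WT was 1.75 ± 0.36 on the log2 scale in 3D (adjusted p = 0.00442) and 1.37 ± 0.36 in 2D (adjusted p = 0.02), although both calls were lost under DESeq2, at adjusted p = 0.301 and 0.427. The 2D call was also lost on leaving out any 1 of the WT libraries or the second or the third dSAP library, with adjusted p between 0.0525 and 0.0729. Relative to WT, dSRF stood at -5.73 ± 0.56 in 3D and -2.74 ± 0.41 in 2D. In 2D all 3 dSRF libraries held MYL7 reads (58, 78 and 226 counts), at least 137-fold above Control set to the floor of 3 counts over the group. In 3D all 45 counts of dSRF lay in the first library, so the call of MYL7 against Control (adjusted p = 0.0338) was lost without it (adjusted p = 1) and the difference from WT then has no finite value. That call was also lost without the low-count filter (adjusted p = 0.083), on the TPM scale and on leaving out any 1 of the 3D Control libraries.

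Added up per length, the 4 regulatory light chains reached 4082 ± 138 TPM in 3D WT (SD, n = 3), 4648 ± 177 in 3D dSAP, 1844 ± 88.8 in 3D dSRF and 1276 ± 38.4 in 3D Control. In 2D the sum was 5189 ± 148 TPM in WT, 5701 ± 182 in dSAP, 2140.0 ± 150.0 in dSRF and 2208 ± 26.7 in Control. MYL9 held 55.7% ± 2.30 of it in 3D WT, 56.9% ± 0.989 in 3D dSAP, 4.99% ± 2.21 in 3D dSRF and 11.5% ± 0.595 in 3D Control. The 2D shares of MYL9 were 46.4% ± 0.921 in WT, 49.5% ± 1.17 in dSAP, 9.15% ± 1.99 in dSRF and 7.50% ± 0.213 in Control. The make-up of the pool thus differed by line. Each of the 10 comparisons of the MYL9 share (each line with Control in each culture, and 3D with 2D in each line) had an exact two-sided permutation p of 0.1, the smallest that 3 against 3 libraries can give.

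MYL12B was the largest member of the pool in dSRF, with 56.7% ± 3.68 in 3D and 47.6% ± 1.98 in 2D. MYL7, at 0 counts in Control, made up 10.2% ± 0.25 of the pool in 3D dSAP and 7.77% ± 0.397 in 2D dSAP.

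**Figure D2:**
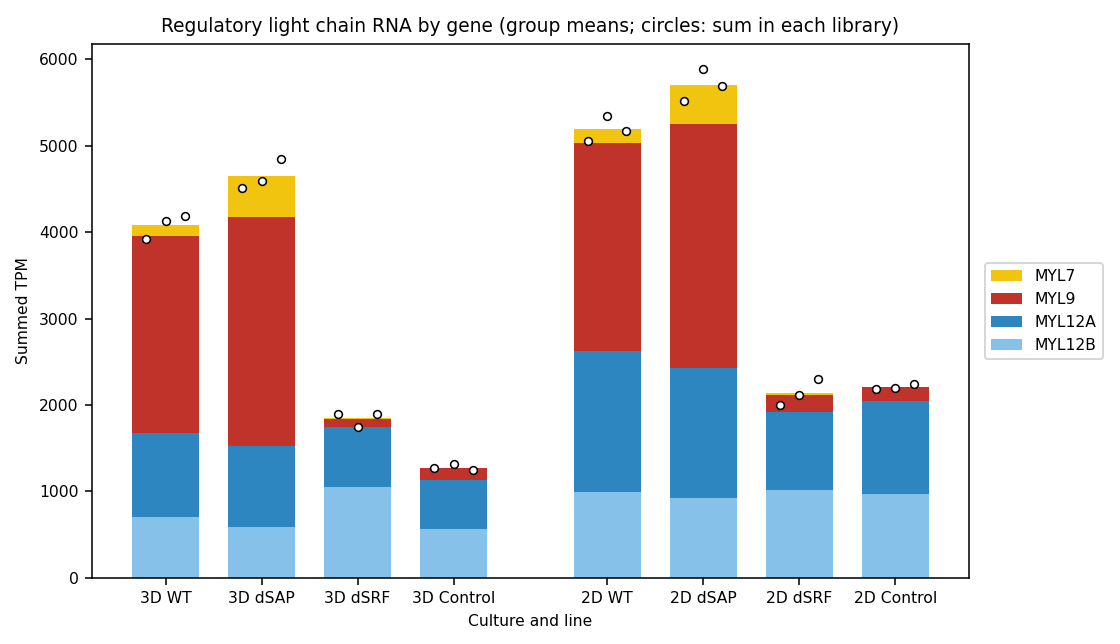
Group means of TPM (n = 3) for MYL12B, MYL12A, MYL9 and MYL7, stacked, with circles for the sum in each library; WT, dSAP, dSRF and Control stand from left to right in 3D and then in 2D. The sum is 4648 TPM in 3D dSAP and 1276 TPM in 3D Control, and MYL9 is the largest part in WT and dSAP of both cultures.

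MYL6, the essential light chain of smooth and non-muscle myosin (chromosome 12, 56158161 to 56163496), rose in WT and dSAP of both cultures. In 3D it had 585, 641 and 661 CPM in WT, 456, 449.6 and 498 in dSAP, 314, 243 and 269 in dSRF, and 214, 229 and 219 in Control. In 2D it had 741, 785 and 747 CPM in WT, 556, 632 and 558 in dSAP, 308, 339.5 and 321 in dSRF, and 326, 320.4 and 316 in Control. WT and dSAP libraries lay above every Control library of their culture, and WT above dSAP.

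The increases of MYL6 over Control were 1.51 ± 0.077 in 3D WT, 1.08 ± 0.076 in 3D dSAP, 1.24 ± 0.076 in 2D WT and 0.86 ± 0.076 in 2D dSAP. In 3D dSRF it rose by 0.32 ± 0.076 (adjusted p = 0.00096), or 0.21 without the first library, and in 2D dSRF it stood at 0.010 (95% interval -0.15 to 0.17). MYL6 overlaps the neighbouring essential light chain gene MYL6B over 1487 bases of the same strand, and held between 92.9% and 98.0% of their summed TPM in every group.

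**Figure D3:**
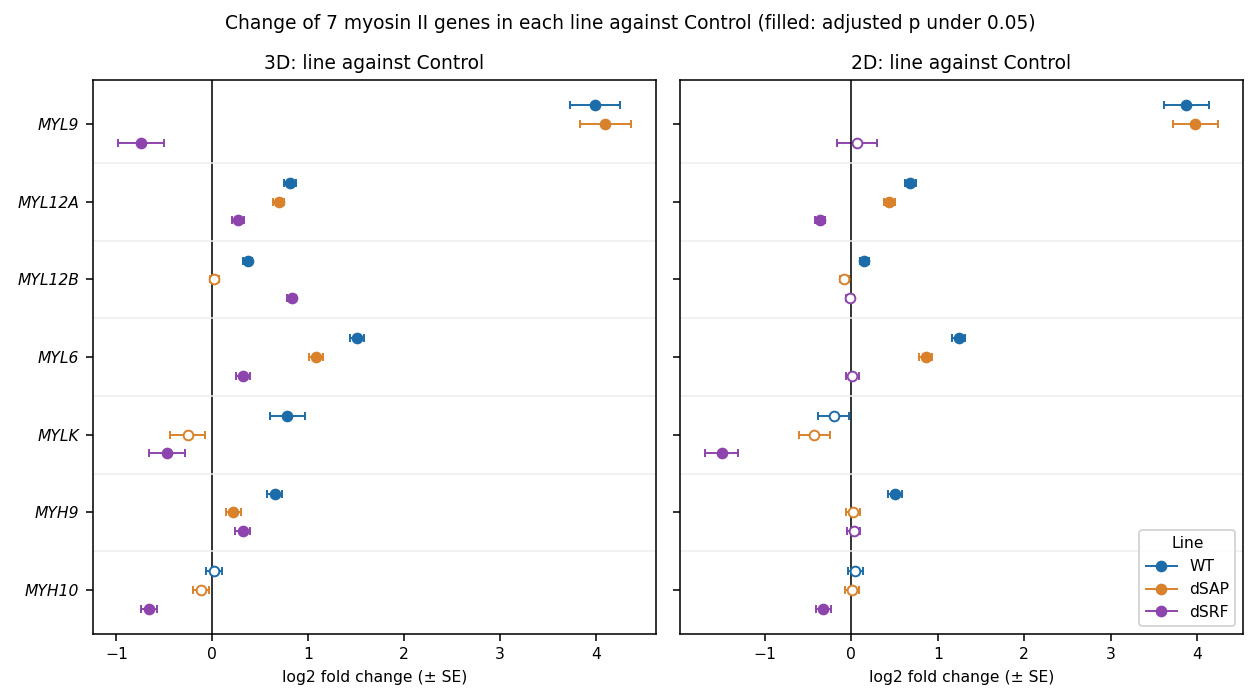
Log2 fold change against Control for 7 myosin genes, 3D on the left and 2D on the right, for WT, dSAP and dSRF; bars are the standard error of the fit (n = 3 libraries per group) and filled points passed adjusted p under 0.05. MYL9 stands near 4 in WT and dSAP, at 4.00 and 4.10 in 3D.

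MYLK, the calcium and calmodulin-dependent kinase that phosphorylates the regulatory light chain (chromosome 3, 123610049 to 123884331), followed a different order. In 3D it had 164, 168 and 162 CPM in WT, 83.6, 78.0 and 78.3 in dSAP, 107, 47.6 and 51.9 in dSRF, and 97.6, 95.8 and 93.4 in Control. In 2D it had 187, 183 and 195 CPM in WT, 154, 169 and 162 in dSAP, 73.2, 76.5 and 80.5 in dSRF, and 224, 192 and 237 in Control. WT lay above every Control library in 3D, whereas in 2D these groups overlapped, with the highest values in Control.

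The 3D WT increase was 0.78 ± 0.18 on the log2 scale (adjusted p = 0.0023), and 2D WT stood at -0.21 ± 0.18 (adjusted p = 0.398), called lower at the same size without the library labelled 3D dSRF 1 (adjusted p = 0.00231). The test of the difference between these effects gave 0.99 ± 0.26 (adjusted p = 0.0195), and 0.93 without the third 2D Control library (adjusted p = 0.0523). In 2D dSRF, MYLK fell by 1.503 ± 0.188 (adjusted p = 9.86e-07). In 3D dSRF it fell by 0.47 ± 0.19 (adjusted p = 0.0313), with overlapping groups, and by 0.94 without the first library (adjusted p = 6.43e-12). That call was lost without the second or the third dSRF library (-0.27 and -0.30), without any 1 Control library of 3D, and with only the libraries compared (adjusted p = 0.238). dSAP did not pass the test against Control in either culture, at -0.26 in 3D and -0.43 in 2D. With the first 3D dSRF library left out of the fit, both dSAP comparisons were called at about the same values, in 3D at an adjusted p of 0.00086 and in 2D of 4.54e-07.

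MYLK also differed between the count and TPM scales in WT. The deposited counts divided by deposited TPM, set to 1 for the median gene of each library, depend on the mean length of the transcripts to which reads were assigned. MYLK's was 1.66, 1.47 and 1.498 in 3D WT, against 2.88, 2.84 and 2.09 in 3D Control. In 2D it was 1.78, 1.89 and 2.07 in WT, against 2.77, 2.78 and 2.59 in Control. In both cultures every WT library thus lay below every Control library (exact two-sided permutation p = 0.1, the smallest possible with 3 against 3).

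Relative to Control, the WT mean was 59.4% in 3D, as low or lower in 1 of 8078 genes with at least 200 counts in every library, and 70.5% in 2D, as low or lower in 3 of 8078. Both counts include MYLK itself. The dSRF values were 99.2% in 3D and 98.1% in 2D, and those of dSAP 94.8% and 87.5%. The measure also moved for MYH10, to 76.4% of Control in 2D dSAP (as low or lower in 7 of 8078 genes) and 114.4% in 3D dSAP. In 2D the MYH10 values of Control themselves ran from 2.18 to 3.36. On the log2(TPM + 1) scale MYLK in WT stood at 1.43 in 3D (limma, adjusted p = 5.56e-07) and at 0.21 in 2D (adjusted p = 0.33). These length values were computed after the levels had been seen. MYLK is known to make a short product, telokin, from an internal start in smooth muscle. The annotated gene has 21 transcripts of 220 to 10027 nt, and the deposited gene-level tables do not say which of them were read. An annotated antisense gene, MYLK-AS1, overlaps 34520 bases of MYLK and is not in the count table used here.

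**Figure D4:**
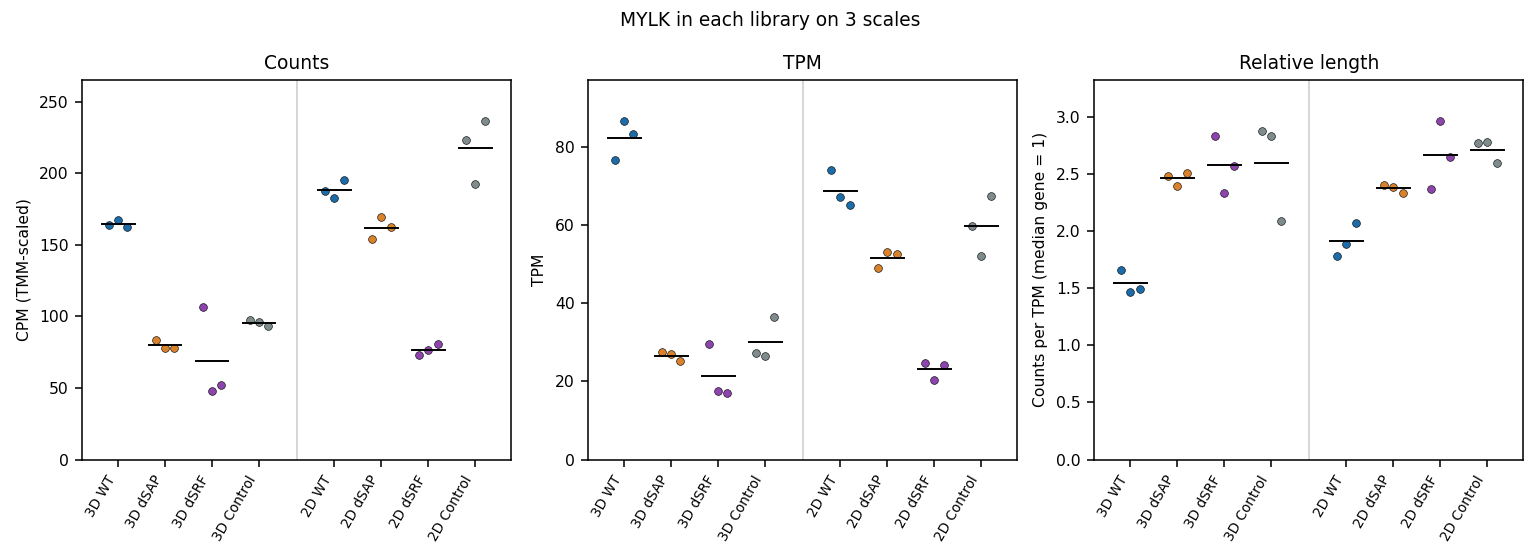
MYLK in each library as CPM, TPM and counts per TPM (a measure of assigned transcript length, with the median gene of the library at 1), with WT, dSAP, dSRF and Control from left to right in 3D and then in 2D; points are libraries. The length measure averages 1.54 in 3D WT and 2.60 in 3D Control.

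MYH9, the heavy chain of non-muscle myosin IIA (chromosome 22, 36281277 to 36388067), was the main heavy chain, holding 89.2% ± 1.28 of the summed heavy chain TPM in 3D Control (SD, n = 3), the lowest group mean, and 94.5% to 95.4% in the libraries of 2D WT, the highest group. In 3D it had 2292, 2309 and 2390.1 CPM in WT, 1765, 1655 and 1759.5 in dSAP, 2100, 1646.5 and 1802 in dSRF, and 1495, 1505 and 1442 in Control. In 2D it had 3186, 3297.5 and 3321 CPM in WT, 2159.7, 2523 and 2332 in dSAP, 2365, 2407 and 2275 in dSRF, and 2389, 2029.6 and 2499 in Control. Only WT lay above all Control libraries in 2D, while in 3D all 3 lines did. The WT increase was 0.65 ± 0.079 in 3D and 0.50 ± 0.078 in 2D. In 3D dSAP it was 0.22 ± 0.078 (adjusted p = 0.0386), which was lost without the low-count filter and without any 1 of the 3D Control libraries (adjusted p between 0.0704 and 0.116), the first or the third 3D dSAP library, the first 2D WT library or the first 2D dSAP library, and in 3D dSRF 0.32 ± 0.078. In 2D, dSAP and dSRF stood at 0.020 and 0.026, not called.

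The gene span of MYH10, the heavy chain of non-muscle myosin IIB (chromosome 17, 8474205 to 8630761), overlaps 16207 bases of NDEL1 on the opposite strand, introns included. Overlap of exons was not measured, and reads from any shared exon could be told apart only if the counting used strand. MYH10 was called against Control in dSRF and not in WT or dSAP. In 3D it had 144, 144 and 141 CPM in WT, 134, 125 and 132 in dSAP, 109.6, 76.1 and 82.6 in dSRF, and 139, 144 and 139.5 in Control. In 2D it had 162, 173 and 167 CPM in WT, 159, 169 and 162 in dSAP, 125, 131 and 132 in dSRF, and 156, 159 and 171 in Control. The dSRF libraries lay below every other library of their culture. MYH10 fell in dSRF by 0.66 ± 0.085 in 3D and 0.33 ± 0.084 in 2D, and on the TPM scale the 3D call was kept and the 2D call lost (limma, adjusted p = 0.546). WT and dSAP did not pass the test against Control, with 0.022 and -0.11 in 3D and 0.046 and 0.0094 in 2D. Without the first 3D dSRF library in the fit, MYH10 in 3D dSAP was called at the same size (adjusted p = 0.0263), as it was with only the libraries compared (adjusted p = 0.0201). MYH11, the smooth muscle heavy chain, gave 1, 2, 1 and 0 counts over the 3 libraries of 3D WT, dSAP, dSRF and Control, and 3, 1, 1 and 1 in 2D, at or under the floor of 3 counts, so no fold is given.

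The mutants were set against WT and each other. Relative to WT, dSAP was called higher for 1 gene (MYL7) and lower for 4 in 3D, where 5.45% of all genes were called higher and 6.63% lower. In 2D it was higher for 1 (MYL7) and lower for 4 as well (all genes 5.09% and 7.71%). In both cultures the lower genes included MYL12B, MYL6 and MYH9, at -0.35 ± 0.049, -0.43 ± 0.075 and -0.43 ± 0.078 in 3D and -0.23 ± 0.049, -0.38 ± 0.075 and -0.48 ± 0.078 in 2D. The remaining call was MYLK in 3D (-1.04 ± 0.19) and MYL12A in 2D (-0.24 ± 0.060). On the TPM scale the 2D calls of MYL12A and MYL12B were lost (-0.11 each), and that of MYL12A also without the first 2D dSAP library (adjusted p = 0.0537). Without the library labelled 3D dSRF 1, dSAP was also called lower than WT for MYLK in 2D (-0.22) and for MYL12A (-0.12) and MYH10 (-0.14) in 3D.

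Relative to WT, dSRF was called higher for 1 gene (MYL12B) and lower for 7 in 3D (all genes 34.2% and 31.6%), and higher for 0 and lower for 8 in 2D (33.6% and 30.4%). Of the 8, MYL12B turned to 0.027 on the TPM scale and was not called, and MYH10 was not called there (-0.064). Beyond MYL9 and MYL7, MYL6 fell by 1.19 ± 0.076 in 3D and 1.23 ± 0.076 in 2D, and MYLK by 1.26 ± 0.19 in 3D and 1.30 ± 0.19 in 2D. dSAP against dSRF was called higher for 5 genes and lower for 1 (MYL12B, -0.81 ± 0.050) in 3D (all genes 31.8% and 32.9%), and higher for 6 and lower for 0 in 2D (31.4% and 33.6%). MYLK did not pass this test in 3D (0.22 ± 0.19), and was called higher in dSAP without the first 3D dSRF library (0.69, adjusted p = 2.7e-09). MYH9 did not pass the test between dSAP and dSRF in either culture (-0.099 in 3D and -0.0067 in 2D).

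The culture comparison asks what growth on matrigel changed within each line, and the calls were all toward lower levels. Relative to 2D, 3D was called lower for 5 of 8 genes in WT, 6 in dSAP, 6 in dSRF and 5 in Control, and higher for 0 in each. Of all genes, 24.4% were called higher and 25.7% lower in WT, 24.2% and 23.5% in dSAP, 7.19% and 9.84% in dSRF, and 23.0% and 24.4% in Control. On the TPM scale MYH10 in WT turned to 0.49 and was not called, and its WT call was lost on leaving out 5 of the libraries in turn. The MYH10 calls in dSAP and dSRF were also lost on the log2(TPM + 1) scale (-0.42 and -0.24, limma, adjusted p = 0.0959 and 0.484). So were those of MYL6 and MYH9 in dSRF. With only the libraries compared, none of the 6 dSRF calls was kept (edgeR, adjusted p between 0.191 and 0.486). Without the library labelled 3D dSRF 1, MYH10 was also called lower in Control (-0.20, adjusted p = 0.000148). MYL12A fell by 0.90 ± 0.060 in WT, 0.78 ± 0.060 in dSAP, 0.40 ± 0.060 in dSRF and 1.03 ± 0.060 in Control. MYH9 fell by 0.49 ± 0.078 in WT, 0.44 ± 0.078 in dSAP, 0.34 ± 0.078 in dSRF and 0.64 ± 0.079 in Control. MYL9 fell by 1.10 ± 0.24 in dSRF, or by 1.66 without the first 3D library, and stood at -0.18 in WT, -0.17 in dSAP and -0.30 in Control, not called. With only the libraries compared this turned round, and its dSRF call was lost (-1.07, edgeR, adjusted p = 0.341). In those fits MYL9 was called lower in WT (-0.16, adjusted p = 0.0459), dSAP (-0.17, adjusted p = 0.0134) and Control (-0.29, adjusted p = 0.000517). The difference between its dSRF and Control values did not pass the test (-0.81 ± 0.33, adjusted p = 0.078). It was called in DESeq2 (adjusted p = 0.0398), on the log2(TPM + 1) scale (limma, adjusted p = 0.0192) and without the first 2D dSRF library (edgeR, adjusted p = 0.0482).

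MYL12B fell by 0.63 ± 0.049 in WT, 0.75 ± 0.050 in dSAP and 0.85 ± 0.050 in Control, and stood at -0.011 in dSRF. MYLK fell by 1.02 ± 0.19 in dSAP and 1.19 ± 0.19 in Control. In WT it stood at -0.20 ± 0.18, called at the same size without the library labelled 3D dSRF 1 (adjusted p = 0.00319), and in dSRF at -0.16 ± 0.19, or -0.63 without the first 3D library (adjusted p = 8.62e-08).

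The change of a line's effect with culture was tested as such. MYL7 is among the 8 genes, but with 0 counts in Control of both cultures edgeR's test could not call it. On the TPM scale its dSRF difference was called at -3.63 with pseudocount 1 (limma, adjusted p = 0.000878). With pseudocount 0.1 it was -5.84 (limma, adjusted p = 0.00482), so its size depends on the pseudocount. For WT, 1 of the 8 genes was called higher in 3D and 0 lower (all genes 4.22% and 4.96%), the MYLK difference given above. Without the library labelled 3D dSRF 1, the WT difference was also called for MYL6 (0.27, adjusted p = 0.0119) and MYL12B (0.22, adjusted p = 0.012). For dSAP 0 were called either way in edgeR's test (1.13% and 1.20%), with 2 at an unadjusted p under 0.05, and 0 in DESeq2. MYL12A came nearest at 0.25 ± 0.084 (adjusted p = 0.143), and was called at the same size without the library labelled 3D dSRF 1 (adjusted p = 0.00563) and with only the libraries compared (adjusted p = 0.0305). For dSRF, 4 were called higher in 3D and 1 lower (14.7% and 14.6%). MYL12B differed by 0.84 ± 0.070, MYL12A by 0.63 ± 0.085, MYLK by 1.03 ± 0.26 and MYL6 by 0.31 ± 0.11, and MYH10 by -0.33 ± 0.12. Without the first 3D dSRF library MYL6 was lost (0.20, adjusted p = 0.0511), MYL9 was gained (-1.36, adjusted p = 7.92e-05), and MYLK stood at 0.56 and MYH10 at -0.51. The MYH10 call was lost on leaving out almost any other library, and the MYL6 call on leaving out 7 others, 5 of them Control. MYH9 lay near the threshold at 0.29 (edgeR, adjusted p = 0.0518). It was called in DESeq2 (adjusted p = 0.0314) and on the log2(TPM + 1) scale (limma, adjusted p = 0.031). Without the first 3D dSRF library MYH9 was not called (0.19, edgeR, adjusted p = 0.0836).

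Genes that act on the light chain or assemble the motor were listed as well, and are described by counts, relative to Control, beside all-gene shares of 18.0% higher and 17.0% lower in 3D WT, 35.1% and 31.3% in 3D dSRF, 20.1% and 19.2% in 2D WT, and 34.5% and 31.5% in 2D dSRF. Of 12 tested kinases, 4 were called higher and 1 lower in 3D WT, among them DAPK3, a light chain kinase (1.17 ± 0.17). Of 5 tested phosphatase genes, 2 were higher and 0 lower in 3D WT. PPP1R12A, which targets myosin phosphatase to myosin, averaged 241 CPM in 3D WT and 98.6 in 3D Control, an increase of 1.29 ± 0.066. In 3D dSRF, 4 kinases were higher and 5 lower, and 1 phosphatase gene was higher and 2 lower. In 2D WT, 5 kinases were higher and 2 lower, and 2 phosphatase genes were higher and 0 lower. In 2D dSRF, 4 kinases were higher and 5 lower, and 1 phosphatase gene was higher and 3 lower. Several of these shares are near those of all genes. PPP1R12A rose by 0.63 ± 0.065 in 3D dSAP and by 0.16 ± 0.065 in 3D dSRF (adjusted p = 0.0339).

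Of 7 tested assembly genes, 2 were higher and 3 lower in 3D WT, and 4 were higher and 1 lower in 3D dSRF. In 2D WT 1 of the 7 was higher and 3 lower, and in 2D dSRF 2 were higher and 4 lower, with a median log2 fold change of -0.39 in 2D dSRF and 0.38 in 3D dSRF. S100A4, a protein that binds the myosin IIA tail, averaged 92.2 CPM in 3D WT, 97.4 in 3D dSAP, 369 in 3D dSRF and 219 in 3D Control. It fell by 1.25 ± 0.15 in WT and 1.17 ± 0.15 in dSAP and rose by 0.76 ± 0.15 in dSRF. Of 5 tested other class II chains, 1 was higher and 1 lower in 3D WT. MYH14, the heavy chain of non-muscle myosin IIC, rose in dSRF, and averaged 3.24 TPM in 3D dSRF, 2.49 in 2D dSRF, 0.0328 in 3D Control and 0.105 in 2D Control.

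Genes most like each myosin gene over the 8 group means were named by Pearson correlation of log2 CPM among 12755 genes, as a description, since the means share libraries. The gene most like MYL6 was VASP (r = 0.996), most like MYL9 DUSP12 (0.989), MYL7 PPP2R1B (0.985), MYL12A RAB8B (0.997), MYL12B ALPK2 (0.981), MYLK GNB1 (0.974), MYH9 JUP (0.978) and MYH10 HMGA1 (0.988). Between the myosin genes, MYL6 and MYL9 had r = 0.921 and MYL12A and MYH9 0.874, whereas MYL9 and MYL12B had r = -0.108.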

How the data were processed

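Stranded libraries were made from total RNA depleted of ribosomal RNA, per the labels' protocols; the molecule field names polyA RNA instead. Per gene, the authors deposited estimated counts in one table and TPM in another; the submitters' processing notes name Salmon 11.3, hg38 and FastQC, and no gene annotation. Counts were rounded. Symbols and positions came from GENCODE 29 (GRCh38), with 34620 of 37247 identifiers placed, and promoters from RefSeq (GRCh38.p14).

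Groups came from the titles. edgeR 4.0.16 (R 4.3.3; filterByExpr, TMM factors 0.89 to 1.085, robust quasi-likelihood, 1 model of 8 groups over 24 libraries, 16 residual degrees of freedom, common biological variation 13.1%) tested 14986 genes, called at Benjamini-Hochberg adjusted p under 0.05. CPM values are TMM-scaled. Folds against 0 counts are bounds against 3 counts over the group, covering counting error only. Shares and lengths were compared by exact permutation.

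Alternatives were RLE factors, no filter, DESeq2 1.42.0, limma-trend 3.58.1 on log2(TPM + 1) and log2(TPM + 0.1), a replicate block, only the libraries compared, each library left out, MYL12A and MYL12B summed, and MYL7 left out of the pool. The fit was tested on simulated data. The named genes were the 9 listed, up to 4 called list members with the lowest p per comparison, the genes most alike in group means (mean CPM of at least 1), and MRTFA. The genes and lists were chosen with earlier results of these data known, and 1 list is not reported here. Figures were drawn with Python 3.11.15 and matplotlib 3.10.9.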

Additional observations from a re-analysis of the deposited data

Results flagged for a closer look

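Tests of whether a line's effect on a gene changed with culture passed for 6 results. For MYLK the WT effect against Control was higher in 3D than in 2D by 0.99 on the log2 scale. For the dSRF effect against Control, 3D was higher than 2D by 0.31 for MYL6, 0.63 for MYL12A, 0.84 for MYL12B and 1.03 for MYLK, and MYH10 differed by -0.33. All 5 dSRF results include the library labelled 3D dSRF 1, which stands apart from its group. Without it MYL12A and MYL12B remained called, at 0.54 and 0.84, and MYL6 did not pass the test. The MYLK call for WT was lost without the third 2D Control library, at 0.93.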

How the results depend on the processing

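Of the gene-by-comparison values under each alternative, 4631 kept their side of the threshold, 135 lost a call, 54 gained one and 4 reversed. Direction was not compared for values called in neither fit, so changes of sign among them are not in the 4. An example is MYH9 in dSAP against dSRF in 3D, at -0.099 and, without 3D dSRF 1, at 0.0050. The reversals were on the TPM scale: MYL12B in dSRF against WT in 2D (0.02731 and 0.02733 with pseudocounts 1 and 0.1, main -0.16) and MYH10 in 3D against 2D in WT (0.4939 and 0.5029, main -0.22). On that scale the median of all genes shifted by 0.152 and 0.183 in the first comparison and, with pseudocount 0.1, by 0.119 in the second and 0.111 for dSAP against WT in 2D; relative to the median MYL12B was -0.15 and -0.18 and MYH10 0.40 and 0.38. Counts of myosin genes called that moved by over 1.5 times were these. On TPM they were 2 (main 5) for dSAP against WT in 2D, 3 (main 6) for 3D against 2D in dSRF and 2 (main 1) for the WT difference. With only the libraries compared they were 4 (main 8) for dSRF against Control in 3D, 8 (main 5) for 3D against 2D in WT, 0 (main 6) in dSRF, and 3, 1 and 2 (main 1, 0 and 5) for the WT, dSAP and dSRF differences. DESeq2 called 2 and no filter 0 for the WT difference, and no filter 3 for the dSRF difference. Leaving out each library in turn gave 0 to 3, 0 to 1 and 3 to 5 calls for the 3 differences. Without 3D dSRF 1 the counts over all genes were 7351 (main 2551) for 3D against 2D in dSRF, 4149 (1810) and 4220 (1919) for dSAP against WT in 3D and 2D, 1738 (350), 3636 (1376) and 6680 (4379) for the dSAP, WT and dSRF differences, and 6715 (4435) for dSAP against Control in 3D. With only the libraries compared 3D against 2D in dSRF called 0 genes. The TPM scale moved the split of higher and lower calls over all genes, most in dSAP against WT in 2D (1404 and 455, main 763 and 1156). With MYL7 left out of the pool the MYL9 share was 47.85% in 2D WT, 53.72% in 2D dSAP and 63.42% in 3D dSAP. With a replicate block 3D against 2D called 3 genes in WT and 2 in dSRF. In that fit the contrast was read at the first replicate of each culture, so its values are not differences of group means. Those counts therefore do not show how the culture calls depend on pairing. Same-numbered libraries had deviation correlations of -0.123 to 0.108 over 36 pairs, so the numbers were not taken to pair libraries. The cause of these changes was not tested. MYL12A and MYL12B could not be separated beyond the authors' split, and 3 libraries per group allow an exact p of 0.1 at best.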

Other observations

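Set against the heavy chains, the light chains made up a larger part of the transcripts in WT and dSAP. The summed regulatory light chain TPM per summed heavy chain TPM averaged 5.73 ± 0.283 in 3D WT (SD, n = 3), 8.45 ± 0.575 in 3D dSAP, 3.20 ± 0.209 in 3D dSRF and 2.73 ± 0.116 in 3D Control. In 2D this ratio was 6.52 ± 0.157 in WT, 9.02 ± 0.446 in dSAP, 3.33 ± 0.252 in dSRF and 3.60 ± 0.281 in Control. The essential light chain ratio was 3.10 ± 0.224 in 3D WT, 3.24 ± 0.186 in 3D dSAP, 1.92 ± 0.231 in 3D dSRF and 1.86 ± 0.0518 in 3D Control. Regulatory over essential light chain TPM averaged 2.61 ± 0.105 in 3D dSAP and 1.85 ± 0.0547 in 3D WT, and 2.60 ± 0.00773 in 2D dSAP and 2.02 ± 0.012 in 2D WT. These ratios are of transcripts, not proteins, and were not tested.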
